A study of Homo sapiens with 6 samples.

Results

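Annotated antisense transcripts were followed in CAL51 cells, an established human triple-negative breast cancer line, after TREX1 was targeted with 2 different guide RNAs. They were taken as every row of the expression table whose symbol ends in -AS and a number, such as GAS6-AS1, with a level of at least 0 log2 CPM (read counts scaled to the size of their library, on a log2 scale) in at least 2 of the 6 libraries. Of 14788 rows, 480 carry such a name and 346 passed that level, while the other 134 lay below it. The libraries were poly(A) RNA of cells carrying TREX1 guide 2 (KO-2, 2 libraries), cells carrying TREX1 guide 1 (KO-1, 2 libraries) and control cells (2 libraries). Each guide was brought in with a CRISPR v2 lentivirus. The control is not described further, and a note deposited with the tables mentions more than 1 knockout clone without saying which library came from which. TREX1, the main cytosolic DNA exonuclease, has no row here, so its level was not analysed here and the knockout labels were not checked against it. The labels do not say whether the 2 libraries of a group were grown apart, so a p-value here reflects library-to-library spread alone, and that spread may be technical.

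An antisense transcript is read from the DNA strand opposite a protein-coding gene and is usually named after that gene, its sense gene. Some start close to the sense gene's start on the other strand (head-to-head), either running away from it or crossing it, some run into its 3′ end (tail-to-tail) and some lie inside it. Most are long non-coding RNAs of low level, and a few have described roles, such as OIP5-AS1, which carries a site for the microRNA miR-7. Whether reads were counted by strand is not stated. Where exons of the 2 strands overlap, reads of an antisense transcript and of its sense gene therefore cannot be told apart. Reads of unspliced sense RNA over an antisense exon inside the sense gene cannot be told apart either.

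Depth was 13222933 and 20154836 reads in KO-2, 16802681 and 18440036 in KO-1, and 22941234 and 25785055 in control. KO-2 replicate 1 was the shallowest library, and it listed 61 rows without a read, more than the 5 to 16 of any other library. The epithelial markers EPCAM, KRT8, KRT18 and KRT19 lay at 8.03 log2 CPM or higher in every library. Of the same list, CDH1 had 4.84 to 5.41 and KRT7 only -0.20 to 0.65. The mesenchymal genes FN1, VIM and CDH2 had 10.36 to 10.76, 6.20 to 6.74 and 4.41 to 4.68. The endothelial genes CDH5, VWF and PECAM1 had 3.46 to 4.05, 2.03 to 2.24 and 1.18 to 2.19. CD3E, CD68, CD79A, HBB, HBA1, ESR1 and PGR were not analysed here, whereas the leukocyte gene PTPRC had 3.95 to 4.35 log2 CPM and ERBB2 had 7.35 to 7.64. The histone mRNAs H2BC12, H1-2 and H2AC6, most of which normally lack a poly(A) tail, had log2 fold changes of 0.84, 0.51 and 0.71 for both guides against control and passed the test. The part of poly(A) selection in the antisense values below was not tested.

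Antisense transcripts were low. Their mean log2 CPM over the libraries had a median of 1.05, against 4.98 for all 13765 rows tested. The mean was below 1 for 163 of the 346, from 1 to below 3 for 141 and at least 3 for 42. Together they took 0.161% and 0.173% of the reads in KO-2, 0.168% and 0.175% in KO-1, and 0.187% and 0.188% in control, so every knockout library lay below both control libraries. Without FGD5-AS1 and OIP5-AS1, the most abundant pair, the shares were 0.124% and 0.139% in KO-2, 0.135% and 0.140% in KO-1, and 0.145% and 0.146% in control, in the same order. In bulk RNA, fewer cells with a transcript and less of it per cell cannot be told apart. The level was at least 0 log2 CPM in all 6 libraries for 231 members and in exactly 2 for 32. Some passed only through the knockouts: 26 lay below 0 in both control libraries, and no member lay below 0 in all 4 knockout libraries. The rule itself is uneven here, since any 2 of the 4 knockout libraries suffice, whereas both control libraries would be needed. These counts are therefore not read as a change, and the same counts over all rows were not taken. At the edge of the rule, IDH1-AS1, KIF25-AS1 and TICAM2-AS1 were the members with the lowest second-highest library, at 0.0028, 0.0028 and 0.0095 log2 CPM, and CPNE8-AS1, NDUFV2-AS1 and PSMD6-AS2 were just outside it, at -0.040, -0.0072 and -0.0072.

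With both guides against control, 27 of the 346 members (7.80%) were called, against 29.6% of all rows tested. A call is an adjusted p below 0.05 in limma, with Benjamini-Hochberg adjustment over all rows tested. Of the 27, 11 were higher in the knockouts (3.18%, against 14.6% of all rows) and 16 were lower (4.62%, against 14.9%). With the library medians set equal, 12 were higher and 9 lower, and when only rows whose mean reached 1 log2 CPM were tested there were 6 higher and 16 lower, so the split between directions depends on the scaling and on the filter. Of the 11, 3 (GAS6-AS1, CACTIN-AS1 and CCDC13-AS1) passed the level rule only through the knockouts. The median log2 fold change was -0.10 over the members and -0.01 over all rows. The call was kept in every fit that left out 1 library for 5 of the 27 (GAS6-AS1, SHROOM3-AS1, TP73-AS1, OIP5-AS1 and VPS9D1-AS1), and it was lost without control replicate 1 or control replicate 2 for the other 22. The count was 55 without KO-2 replicate 1 and 55 without KO-2 replicate 2, 10 without KO-1 replicate 1 and 11 without KO-1 replicate 2, and 7 without control replicate 1 and 6 without control replicate 2. Knockout and control libraries did not overlap for 96 members (27.7%, against 46.3% of all rows). The knockouts were above for 28 (8.09%, against 22.3%) and below for 68 (19.7%, against 24.0%).

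**Figure D1:**
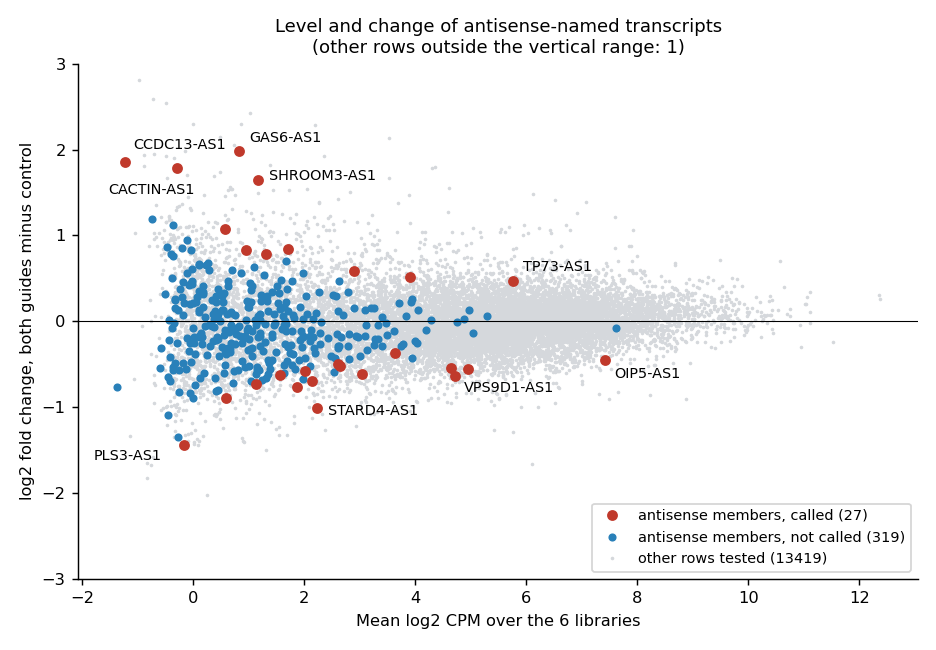
Log2 fold change of both guides against control (vertical axis) against the mean log2 CPM of the 6 libraries (horizontal axis), 1 point per row; red points are the 27 antisense transcripts called, blue points the other members and grey points all other rows tested. Most members lie at the low end of the range, and the called ones reach from CCDC13-AS1 at a mean of -1.24 to OIP5-AS1 at 7.43.

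Rows of higher level were called more often, among members and among the other rows alike, though not in every step. Below a mean of 0 log2 CPM, 3 of 55 members were called (5.45%), against 6.49% of other rows. From 0 to 1 the shares were 3.70% and 6.39%, from 1 to 2 they were 6.19% and 11.4%, from 2 to 3 they were 13.6% and 18.1%, and from 3 to 4 they were 11.1% and 25.2%. At 4 or more, 5 of 15 members (33.3%) were called, against 37.9% of other rows. The member share was thus the lower one in each of the 6 ranges. This comparison was chosen after seeing the data. Among other non-coding classes picked by name, 8 of 157 divergent transcripts (-DT, 5.10%) and 18 of 146 LINC rows (12.3%) were called. Of the 300 sense genes tested, 108 (36.0%) were called, 67 higher (22.3%) and 41 lower (13.7%). Over all rows tested the shares were 29.6%, 14.6% and 14.9%. The divergent, LINC and sense gene sets were not matched for level.

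**Figure D2:**
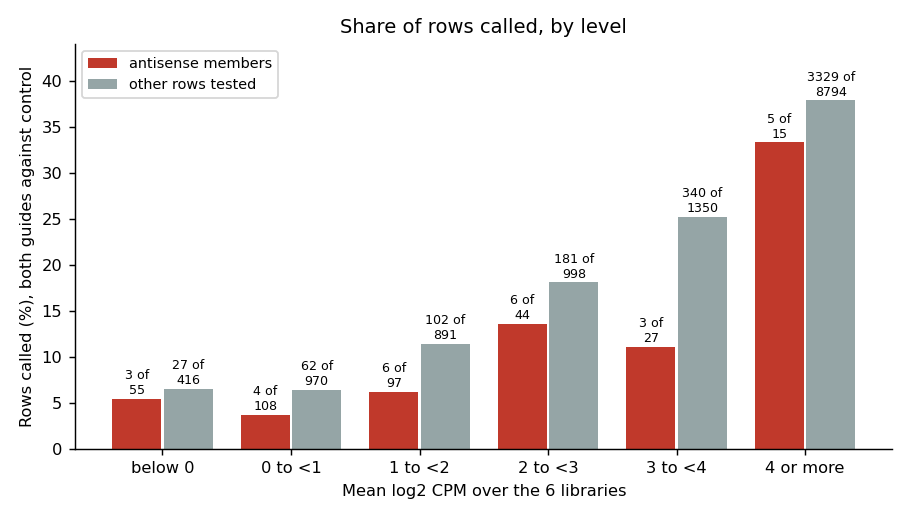
Percent of rows called for both guides against control (vertical axis) in ranges of the mean log2 CPM (horizontal axis), for antisense members (red) and all other rows tested (grey), with the counts above each bar. Member shares run from 3.70% to 33.3% and lie below the grey bar in each range.

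Among the transcripts that rose, GAS6-AS1 had the highest fitted log2 fold change, on a scale that understates members of few reads such as CCDC13-AS1. It lies tail-to-tail with GAS6, the ligand of the TAM receptor kinases, on the plus strand at chr13:113815630-113845744 (GRCh38, GENCODE v29), and 5.87% of its exonic bases overlap GAS6 exons. GAS6-AS1 had 1.35 and 1.84 log2 CPM in KO-2, 1.30 and 1.44 in KO-1, and -0.51 and -0.48 in control. All 4 knockout libraries lay well above the control pair, on 32 to 70 reads a library in the knockouts against 14 and 16 in control. It passed the level rule through the knockout libraries alone, so its fold changes and p-values are a description. Its log2 fold change was 1.98 ± 0.28 (SE), with an adjusted p of 0.00057. Per guide it was 2.09 in KO-2 (adjusted p = 0.0023) and 1.87 in KO-1 (adjusted p = 0.0017). GAS6 itself had 2.16 and 2.33 log2 CPM in KO-2, 2.71 and 2.67 in KO-1, and 2.49 and 2.25 in control, and did not pass the test (0.09 ± 0.17, adjusted p = 0.71). Per kilobase of exon, the GAS6-AS1 level was 53.5% of the GAS6 level in KO-2, 32.7% in KO-1 and 9.96% in control.

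SHROOM3-AS1 rose as well. It is read from inside SHROOM3, whose protein organises actin at the apical side of epithelial cells, at chr4:76756960-76758474 on the minus strand, and shares no exonic base with it. It had 0.84 and 1.60 log2 CPM in KO-2, 2.13 and 2.29 in KO-1, and 0.28 and -0.14 in control. The KO-1 libraries were highest and no knockout library overlapped the controls. The log2 fold change was 1.64 ± 0.29 (SE, adjusted p = 0.0018), made up of 1.15 in KO-2 and 2.14 in KO-1. The difference of -0.99 between the guides did not pass (adjusted p = 0.17). SHROOM3, with 8.56 to 8.89 log2 CPM in the libraries, rose by 0.20 ± 0.05 (adjusted p = 0.012).

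CACTIN-AS1 runs tail-to-tail with CACTIN, which codes for a spliceosome-associated protein, and 54.1% of its exonic bases overlap CACTIN exons. It had 0.78 and -0.01 log2 CPM in KO-2, 0.57 and -0.12 in KO-1, and -1.66 and -1.29 in control, the last on 5 and 8 reads. The groups did not overlap, and it too passed the level rule only through the knockouts, so its values are likewise a description. It rose by 1.78 ± 0.43 on the log2 scale (adjusted p = 0.010), and CACTIN rose by 0.27 ± 0.09 (adjusted p = 0.045). The CACTIN-AS1 call was lost without KO-1 replicate 1 (adjusted p = 0.052), control replicate 1 (0.11) or control replicate 2 (0.053).

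CCDC13-AS1 lies inside CCDC13, which codes for a centriolar satellite protein. It had 3 and 7 reads in KO-2, 16 and 19 in KO-1, and 3 and 1 in control, or -1.59 and -1.15, 0.09 and 0.18, and -2.12 and -2.83 log2 CPM in that order of groups. KO-1 was highest and KO-2 lay between KO-1 and control. It is a member only through the KO-1 libraries, so its fold changes, interval and p-values are a description. The pooled reads gave a knockout level 7.99 times that of control, with a 95% exact interval of 2.91 to 30.6 that covers counting error only. Its log2 fold change of 1.86 ± 0.53 had an adjusted p of 0.024. The CCDC13-AS1 call was lost without KO-1 replicate 1 (adjusted p = 0.080), KO-1 replicate 2 (0.087), control replicate 1 (0.081) or control replicate 2 (0.19). CCDC13 itself changed to a like degree (1.81 ± 0.52, adjusted p = 0.024), on 4 and 17 reads in KO-2, 15 and 20 in KO-1, and 2 and 5 in control, and 19.6% of the antisense exonic bases overlap its exons.

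TP73-AS1 was the third most abundant member and rose while its sense gene fell. TP73 codes for p73, a transcription factor of the p53 family, and TP73-AS1 ends over its 3′ part at chr1:3735511-3747373 on the minus strand. TP73-AS1 had 5.57 and 5.89 log2 CPM in KO-2, 6.17 and 6.08 in KO-1, and 5.44 and 5.47 in control. KO-1 was highest, KO-2 replicate 1 lay close above the controls, and nothing overlapped. Its log2 fold change was 0.47 ± 0.09 (SE, adjusted p = 0.0028), with 0.28 in KO-2 (adjusted p = 0.089) and 0.67 in KO-1 (adjusted p = 0.00088). TP73 had 3.32 and 3.04 log2 CPM in KO-2, 3.28 and 2.83 in KO-1, and 3.64 and 3.63 in control, all knockout libraries being lower. TP73 fell by 0.51 ± 0.16 (adjusted p = 0.030). Per kilobase of exon, TP73-AS1 stood at 413% of TP73 in KO-2, 586% in KO-1 and 248% in control.

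ECI1-AS1 was the other member called in the direction opposite to its sense gene. ECI1 is a mitochondrial enzyme of unsaturated fatty acid breakdown, and ECI1-AS1 lies inside it without exonic overlap. ECI1-AS1 had 1.56 and 2.09 log2 CPM in KO-2, 2.32 and 1.99 in KO-1, and 1.46 and 0.84 in control. The lowest knockout library stood just above the higher control. It rose by 0.84 ± 0.26 (adjusted p = 0.031), whereas ECI1 fell by 0.34 ± 0.06 (adjusted p = 0.0030). The ECI1-AS1 call was lost without KO-1 replicate 1 (adjusted p = 0.11), KO-1 replicate 2 (0.060), control replicate 1 (0.053) or control replicate 2 (0.33).

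HOXA-AS3 is read from within the HOXA cluster of body-plan transcription factors and has no single sense gene. It had 3.14 and 3.0 log2 CPM in KO-2, 3.10 and 3.11 in KO-1, and 2.50 and 2.50 in control. The 4 knockout values were close together and apart from the controls. It rose by 0.59 ± 0.14 (adjusted p = 0.010), a call lost without control replicate 1 (adjusted p = 0.10) or control replicate 2 (0.10). NOP14-AS1, tail-to-tail with the small-subunit rRNA processing gene NOP14, had 3.90 and 3.98 log2 CPM in KO-2, 4.12 and 4.33 in KO-1, and 3.73 and 3.40 in control. Knockouts were again the higher ones. NOP14-AS1 rose by 0.51 ± 0.13 (adjusted p = 0.011), a call lost without KO-1 replicate 2 (adjusted p = 0.054) or control replicate 2 (0.19).

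The other 3 members that rose had few reads. TFAP2A-AS2, inside the AP-2α gene TFAP2A, had 1.35 and 1.78 log2 CPM in KO-2, 1.55 and 1.58 in KO-1, and 0.64 and 0.93 in control, and rose by 0.78 ± 0.24 (adjusted p = 0.033). TFAP2A rose by 0.16 ± 0.05 (adjusted p = 0.040), and 27.5% of the antisense exonic bases overlap its exons. TONSL-AS1, inside the replication-fork repair gene TONSL, had 0.14 and 1.09 log2 CPM in KO-2, 1.02 and 1.47 in KO-1, and -0.43 and 0.13 in control, so that KO-2 replicate 1 sat at the level of control replicate 2. Its log2 fold change was 1.08 ± 0.36 (adjusted p = 0.044), against -0.19 (adjusted p = 0.19) for TONSL. XPC-AS1, tail-to-tail with the DNA damage recognition gene XPC, had 0.41 and 1.09 log2 CPM in KO-2, 1.70 and 1.73 in KO-1, and 0.47 and 0.32 in control. It was the one called member whose knockout and control libraries overlapped, at 0.83 ± 0.28 (adjusted p = 0.046). All 3 calls were lost without KO-1 replicate 1, KO-1 replicate 2, control replicate 1 or control replicate 2, with adjusted p-values of 0.083, 0.085, 0.27 and 0.11 for TFAP2A-AS2, 0.079, 0.14, 0.32 and 0.099 for TONSL-AS1, and 0.11, 0.12, 0.18 and 0.25 for XPC-AS1. That of XPC-AS1 was lost without KO-2 replicate 2 too (adjusted p = 0.057).

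**Figure D3:**
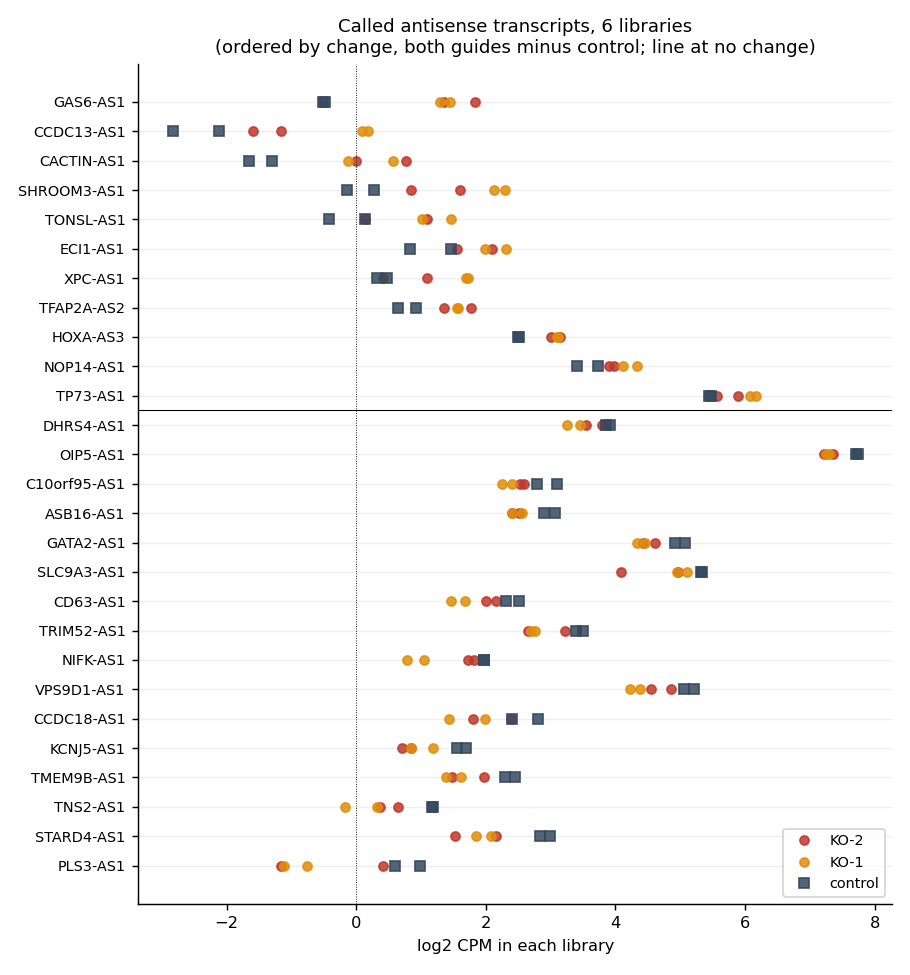
Log2 CPM in each library (horizontal axis) of the 27 called antisense transcripts, 1 row each, ordered by the log2 fold change of both guides against control; red circles are KO-2, orange circles KO-1 and dark squares control, 2 libraries each. Knockout and control libraries overlap in 1 of the 27, XPC-AS1.

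Among the transcripts that fell, OIP5-AS1 had the lowest p. OIP5-AS1, known as Cyrano in other vertebrates, is a cytoplasmic long non-coding RNA whose conserved site pairs with miR-7 and, in mice, directs destruction of that microRNA. The mature miR-7-5p (RefSeq, GRCh38.p14) and the site found in the longest annotated OIP5-AS1 transcript (GENCODE v29, 8829 bases) are shown because they are the part of this RNA with a described function. Capitals mark the seed, bases 2 to 8, in the microRNA, and in the site the 7 bases that match the seed and the 14-base run that matches the microRNA's 3′ part.
hsa-miR-7-5p: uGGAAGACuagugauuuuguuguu
OIP5-AS1 site: gAACAACAAAATCACcaatGTCTTCCa
The seed match starts at base 2887 of that transcript, which holds 3 seed matches in all, the others with 3′ runs of 5 and 3 bases. Of the 10 annotated OIP5-AS1 transcripts, 2 hold a seed match, and the 14-base run occurs only in the longest. The OIP5-AS1 values below are for the gene as a whole and do not tell these transcripts apart. The level of the microRNA was not analysed here.

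OIP5-AS1 had 7.35 and 7.22 log2 CPM in KO-2, 7.25 and 7.29 in KO-1, and 7.70 and 7.74 in control, on 2134 to 5597 reads a library. The knockout values lay within a narrow band below both controls. The log2 fold change was -0.45 ± 0.05 (adjusted p = 0.00025), and OIP5-AS1 fell by 0.44 in KO-2 (adjusted p = 0.0018) and by 0.46 in KO-1 (adjusted p = 0.00048). OIP5, which codes for a centromere protein that helps load CENP-A and lies tail-to-tail with it, had 2.11 and 1.62 log2 CPM in KO-2, 2.21 and 2.08 in KO-1, and 2.71 and 2.75 in control. OIP5 fell by 0.72 ± 0.19 (adjusted p = 0.017), and 3.71% of the OIP5-AS1 exonic bases overlap its exons. OIP5-AS1 lies at chr15:41283990-41309737, on the plus strand.

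VPS9D1-AS1, a transcript described as a MYC target in colon cancer cells, is read from inside VPS9D1 at chr16:89711856-89718165 on the plus strand. It had 4.86 and 4.56 log2 CPM in KO-2, 4.22 and 4.37 in KO-1, and 5.06 and 5.21 in control. The KO-1 libraries were lowest and KO-2 replicate 1 came nearest to the controls. VPS9D1-AS1 fell by 0.64 ± 0.11 (adjusted p = 0.0016), by 0.43 in KO-2 (adjusted p = 0.037) and by 0.84 in KO-1 (adjusted p = 0.00069). VPS9D1 had a log2 fold change of -0.41 ± 0.15 that did not pass (adjusted p = 0.060), and 29.5% of the antisense exonic bases overlap its exons.

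GATA2-AS1 overlaps the 5′ part of GATA2, a transcription factor best known from blood stem cells, at chr3:128489212-128502348 on the plus strand, without exonic overlap. It had 4.43 and 4.61 log2 CPM in KO-2, 4.46 and 4.33 in KO-1, and 4.92 and 5.08 in control. All knockout libraries were lower. GATA2-AS1 fell by 0.54 ± 0.10 (adjusted p = 0.0023), a call lost without control replicate 2 (adjusted p = 0.063). GATA2 had 4.68 and 4.86 log2 CPM in KO-2, 4.70 and 4.78 in KO-1, and 4.68 and 4.90 in control, with a log2 fold change of -0.04 ± 0.10 (adjusted p = 0.80).

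All 4 called members that start head-to-head with their sense gene were lower in the knockouts, and none of their sense genes was called. STARD4-AS1 starts 364 bases from STARD4, a sterol transporter of the cholesterol system, at chr5:111512226-111739726 on the plus strand. It had 1.52 and 2.16 log2 CPM in KO-2, 1.85 and 2.08 in KO-1, and 2.99 and 2.84 in control. The knockout libraries were all well below the controls. STARD4-AS1 fell by 1.01 ± 0.21 (adjusted p = 0.0051), a call lost without control replicate 1 (adjusted p = 0.088). STARD4 had 4.88 and 4.91 log2 CPM in KO-2, 4.90 and 5.11 in KO-1, and 4.69 and 4.75 in control, and its log2 fold change was 0.23 ± 0.09 (adjusted p = 0.072). So the pair's values lay on opposite sides, though the sense gene did not pass.

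TMEM9B-AS1 starts 336 bases from TMEM9B, which codes for a lysosomal membrane protein. It had 1.48 and 1.97 log2 CPM in KO-2, 1.61 and 1.38 in KO-1, and 2.29 and 2.45 in control, and fell by 0.76 ± 0.22 (adjusted p = 0.022). TRIM52-AS1 starts 73 bases from TRIM52, which codes for a RING-type ubiquitin ligase. It had 3.22 and 2.66 log2 CPM in KO-2, 2.7 and 2.76 in KO-1, and 3.39 and 3.51 in control, and fell by 0.61 ± 0.17 (adjusted p = 0.020). CD63-AS1 starts 603 bases from CD63, the tetraspanin of late endosomes and exosomes. It had 2.00 and 2.16 log2 CPM in KO-2, 1.46 and 1.68 in KO-1, and 2.50 and 2.31 in control, and fell by 0.58 ± 0.19 (adjusted p = 0.040). In each of the 3 all knockout libraries lay below both controls. The calls were lost without KO-1 replicate 2, control replicate 1 or control replicate 2 (adjusted p = 0.070, 0.13 and 0.20) for TMEM9B-AS1. Without KO-1 replicate 1, KO-1 replicate 2, control replicate 1 or control replicate 2, they were lost for TRIM52-AS1 (adjusted p = 0.067, 0.057, 0.11 and 0.18) and CD63-AS1 (0.10, 0.061, 0.32 and 0.15). Log2 fold changes of the sense genes were 0.21 for TMEM9B (adjusted p = 0.090), -0.01 for TRIM52 (adjusted p = 0.99) and 0.13 for CD63 (adjusted p = 0.061).

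The start regions of the STARD4 pair are shown from RefSeq (GRCh38.p14), 250 bases before to 50 after each start, because the starts lie close together and their transcripts gave values on opposite sides. STARD4-AS1 starts within the annotated span of STARD4 and runs across its start. Capitals mark the GC box core GGGCGG, on either strand, and CCAAT, on either strand. STARD4-AS1 is at chr5:111511976-111512275 on the plus strand and STARD4 at chr5:111512486-111512785 on the minus strand.
STARD4-AS1: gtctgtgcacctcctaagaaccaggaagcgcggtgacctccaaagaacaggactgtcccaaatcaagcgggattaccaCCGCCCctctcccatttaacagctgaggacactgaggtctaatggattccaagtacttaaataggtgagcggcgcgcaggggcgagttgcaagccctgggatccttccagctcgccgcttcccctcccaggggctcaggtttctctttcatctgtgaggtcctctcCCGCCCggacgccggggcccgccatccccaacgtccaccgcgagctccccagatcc
STARD4: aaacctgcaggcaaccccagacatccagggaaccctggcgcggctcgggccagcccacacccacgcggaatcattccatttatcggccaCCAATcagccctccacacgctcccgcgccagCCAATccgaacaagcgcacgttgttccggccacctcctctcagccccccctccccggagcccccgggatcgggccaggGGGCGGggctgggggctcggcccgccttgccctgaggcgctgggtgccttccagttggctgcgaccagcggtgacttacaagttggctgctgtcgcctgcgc
The STARD4-AS1 window holds 2 GC box cores and no CCAAT, and the STARD4 window holds 1 GC box core and 2 CCAAT. RefSeq has start windows for 257 of the 346 members, 324 in all. GGGCGG occurred in 59.0% of these and in 66.9% of those of head-to-head members, against 45.0% of all 35116 windows in the table. CCAAT occurred in 28.4% of member windows, against 34.6% of all, TATAAA in 5.56% against 11.5%, and CACGTG in 9.26% against 7.26%, each searched on both strands. These are matches of letters and say nothing of binding.

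By arrangement, 120 members were head-to-head with their sense gene (starts on opposite strands within 1000 bases), 45 overlapped its 5′ part with starts farther apart, 90 lay inside it or held it, and 56 were tail-to-tail. A further 3 lay apart from the gene of their name and 1 lay on its strand. The rest had no sense gene with a row or lacked coordinates. GENCODE v29 types 265 of the 346 members as antisense. Of the 120, 100 have an annotated span that overlaps the sense gene's, so most cross its start. Calls came to 4 head-to-head (3.33%) and 3 of the 45 overlapping the 5′ part (6.67%), all 7 lower, against 29.6% of all rows (14.6% higher and 14.9% lower). Inside the gene 9 were called (10.0%), 5 higher and 4 lower, and tail-to-tail also 9 (16.1%), 5 higher and 4 lower. CCDC13-AS1, inside, and GAS6-AS1 and CACTIN-AS1, tail-to-tail, passed the level rule only through the knockouts. Among members whose mean reached 1 log2 CPM, the splits were 3 higher and 5 lower inside, and 2 higher and 4 lower tail-to-tail. The median log2 fold change was -0.19 head-to-head, -0.17 over the 5′ part, 0.09 inside and -0.04 tail-to-tail, against -0.01 for all rows tested. The tail-to-tail median was 0.01 with the library medians set equal. Without control replicate 1 no head-to-head member was called, and the median inside the gene was 0.01. Without KO-2 replicate 2, 20 head-to-head members were called lower and 1 higher, and the median inside the gene was close to 0, at -0.0038. Without KO-2 replicate 1 there were 11 lower and none higher head-to-head, but 4 lower and 2 higher over the 5′ part. The difference between arrangements was not tested.

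**Figure D4:**
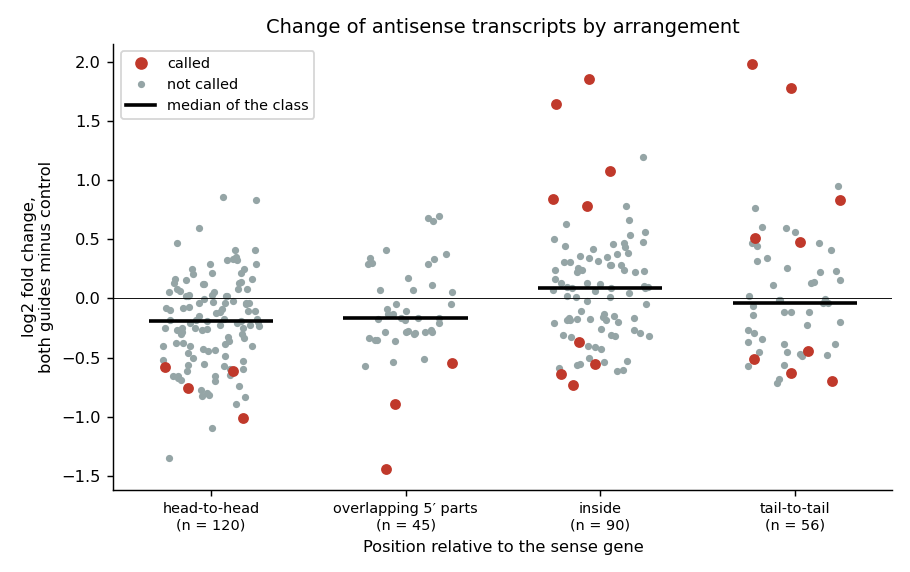
Log2 fold change of both guides against control (vertical axis) for the members of 4 arrangements relative to the sense gene (horizontal axis), 1 point per transcript, with called ones in red and the class median as a black line. Red points lie below 0 in both classes at the 5′ end, and on both sides of 0 inside the gene and tail-to-tail.

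Antisense transcripts and sense genes were compared in 304 pairs in which both were tested. Both were called in 9 pairs, the antisense alone in 16, the sense gene alone in 101 and neither in 178. In all, the sense gene was called in 110 of the 304 pairs, so many sense genes were called whatever their antisense did. The count of 9 is therefore not read as a sign that the 2 change together. Of the 9, 7 changed in the same direction (CCDC13, SHROOM3, CACTIN and TFAP2A higher, OIP5, CCDC18 and DHRS4 lower) and 2 in opposite directions (TP73 and ECI1). That split did not hold under other settings, with 5 same and 4 opposite with library medians set equal, 9 and 6 with voom, 16 and 11 without KO-2 replicate 1, and 14 and 15 without KO-2 replicate 2. Among the 9, CCDC13-AS1 and CACTIN-AS1 passed the level rule only through the knockouts. None of the 9 was head-to-head, but only 4 head-to-head antisense members were called, so few such pairs could have both called. Of the 119 sense genes of head-to-head pairs 44 were called, beside the 110 over all 304 pairs. Without control replicate 1 the count of pairs with both called was 0, and without control replicate 2 it was 1. As a description over pairs from the same libraries, Spearman's rho between the 2 log2 fold changes was 0.15 over 304 pairs, 0.06 over 119 head-to-head, 0.02 over 43 overlapping the 5′ part, 0.23 over 84 inside and 0.28 over 53 tail-to-tail. Exons overlapped in 221 of 303 pairs with coordinates, by a median of 10.7% of the antisense exonic bases among those, where reads of the 2 strands cannot be told apart. Per kilobase of exon, the antisense level was a median 10.5% of the sense level in KO-2, 11.9% in KO-1 and 12.3% in control, and it exceeded the sense level in 36, 39 and 39 of 303 pairs in the same order.

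**Figure D5:**
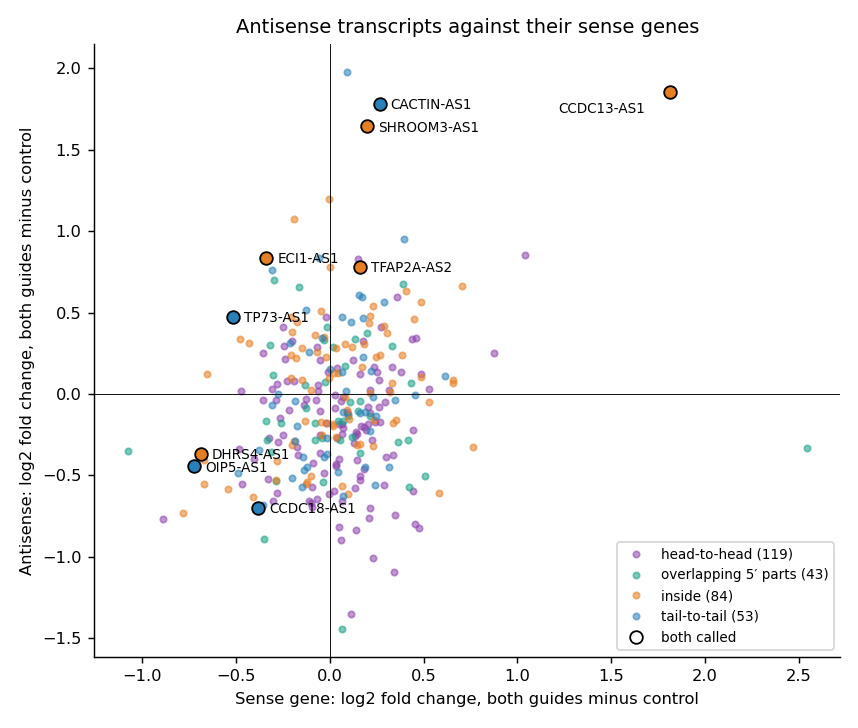
Log2 fold change of both guides against control of the antisense transcript (vertical axis) against that of its sense gene (horizontal axis), 1 point per pair and coloured by arrangement, with outlined points where both were called. Of the 9 outlined pairs, TP73-AS1 and ECI1-AS1 lie in the upper left, where the antisense is higher and the sense gene lower.

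Both genes fell in the CCDC18 and DHRS4 pairs. CCDC18-AS1 had 1.80 and 2.40 log2 CPM in KO-2, 1.43 and 1.99 in KO-1, and 2.40 and 2.81 in control, so that KO-2 replicate 2 met control replicate 1. It fell by 0.70 ± 0.24 (adjusted p = 0.049) and CCDC18 by 0.38 ± 0.11 (adjusted p = 0.025). DHRS4-AS1, inside the locus of the carbonyl reductase DHRS4, had 3.80 and 3.54 log2 CPM in KO-2, 3.45 and 3.25 in KO-1, and 3.91 and 3.85 in control. The knockouts lay below the controls, KO-2 replicate 1 only just. DHRS4-AS1 fell by 0.37 ± 0.13 (adjusted p = 0.049) and DHRS4 by 0.69 ± 0.13 (adjusted p = 0.0032). DHRS4 has near-identical neighbouring copies, between which reads can be split, so its value is uncertain. Without KO-1 replicate 1, KO-1 replicate 2, control replicate 1 or control replicate 2, the call was lost for CCDC18-AS1 (adjusted p = 0.15, 0.051, 0.11 and 0.38) and for DHRS4-AS1 (0.067, 0.14, 0.30 and 0.20).

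The other falling members were called without their sense genes. PLS3-AS1, over the 5′ part of the actin-bundling gene PLS3, had 0.41 and -1.15 log2 CPM in KO-2, -1.11 and -0.76 in KO-1, and 0.60 and 0.98 in control, on 6 to 16 reads in the knockouts against 33 and 49 in control. KO-2 replicate 1 lay near the controls and the other 3 knockout libraries far below. It fell by 1.44 ± 0.47 (adjusted p = 0.040), whereas PLS3 had a log2 fold change of 0.06 (adjusted p = 0.21). TNS2-AS1, over the 5′ part of the focal adhesion gene TNS2, had 0.64 and 0.37 log2 CPM in KO-2, -0.17 and 0.32 in KO-1, and 1.17 and 1.19 in control. It fell by 0.89 ± 0.30 (adjusted p = 0.046), with all 4 knockout libraries lower. NIFK-AS1, tail-to-tail with NIFK, whose protein binds Ki-67, had 1.73 and 1.82 log2 CPM in KO-2, 0.79 and 1.04 in KO-1, and 1.97 and 1.97 in control. KO-1 was far below and KO-2 close to control, and it fell by 0.63 ± 0.21 (adjusted p = 0.047).

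SLC9A3-AS1, inside the sodium-proton exchanger gene SLC9A3, was low mainly in 1 library. It had 4.09 and 4.96 log2 CPM in KO-2, 5.10 and 4.94 in KO-1, and 5.31 and 5.34 in control, and fell by 0.55 ± 0.18 (adjusted p = 0.040). KO-2 replicate 1 was the lowest, and SLC9A3 had its lowest value there too, 1.07 log2 CPM against 2.13 to 2.74 in the other libraries. Per kilobase of exon SLC9A3-AS1 stood at 911% of SLC9A3 in KO-2, 948% in KO-1 and 867% in control. KCNJ5-AS1, inside the potassium channel gene KCNJ5 and typed as protein-coding in GENCODE v29, had 0.71 and 0.84 log2 CPM in KO-2, 0.84 and 1.19 in KO-1, and 1.55 and 1.70 in control. It fell by 0.73 ± 0.25 (adjusted p = 0.047), with no overlap of the groups. KCNJ5 had a log2 fold change of -0.78 ± 0.35 (adjusted p = 0.12).

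These 5 calls were lost without KO-1 replicate 1, KO-1 replicate 2, control replicate 1 or control replicate 2, with adjusted p-values in that order of 0.11, 0.079, 0.16 and 0.28 for PLS3-AS1, 0.11, 0.056, 0.24 and 0.25 for TNS2-AS1, and 0.11, 0.064, 0.26 and 0.25 for NIFK-AS1. For SLC9A3-AS1 they were 0.094, 0.14, 0.17 and 0.18, and for KCNJ5-AS1 0.12, 0.065, 0.21 and 0.30. The 2 remaining members, ASB16-AS1 (-0.52 ± 0.16, adjusted p = 0.029) and C10orf95-AS1 (-0.50 ± 0.16, adjusted p = 0.039), are named after their values were seen. Both had all knockout libraries below the controls, and both were lost without either KO-1 or either control library, at adjusted p-values of 0.083, 0.055, 0.29 and 0.13 for ASB16-AS1 and 0.10, 0.068, 0.39 and 0.10 for C10orf95-AS1.

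With each guide alone, the calls came to 10 members in KO-2 against control (2.89%, against 16.9% of all rows), with 4 higher (1.16%, against 8.73%) and 6 lower (1.73%, against 8.19%), and to 28 in KO-1 against control (8.09%, against 29.7% of all rows), with 11 higher (3.18%, against 14.6%) and 17 lower (4.91%, against 15.1%). The comparisons share the control libraries. The members called higher include GAS6-AS1 and CACTIN-AS1 with each guide, and TICAM2-AS1 in KO-1. These passed the level rule only through knockout libraries, so their values and p-values are a description. CACTIN-AS1 had a log2 fold change of 1.86 in KO-2 (adjusted p = 0.027) and 1.70 in KO-1 (adjusted p = 0.024), and HOXA-AS3 had 0.57 in KO-2 (adjusted p = 0.036) and 0.60 in KO-1 (adjusted p = 0.018). STARD4-AS1 had -1.08 in KO-2 (adjusted p = 0.014) and -0.95 in KO-1 (adjusted p = 0.014), and GATA2-AS1 had -0.48 in KO-2 (adjusted p = 0.016) and -0.60 in KO-1 (adjusted p = 0.0027). SLC9A3-AS1 passed with -0.80 in KO-2 (adjusted p = 0.024) and not with -0.31 in KO-1 (adjusted p = 0.30), and NIFK-AS1 had -0.20 in KO-2 (adjusted p = 0.62) and passed with -1.06 in KO-1 (adjusted p = 0.0086). Their differences between the guides, -0.49 and 0.86, did not pass (adjusted p = 0.25 and 0.13). The authors' deposited table gave 9 members for KO-2 and 31 for KO-1 at a false discovery rate below 0.05, of which 9 and 28 were called here too. In the authors' deposited table those limits called 16.7% of all rows for KO-2 and 29% for KO-1. SLC9A3-AS1 in KO-2 was not among its calls, at a log2 fold change of -0.71 and a false discovery rate of 0.084. Between replicates, the SD of the log2 difference over members was 0.68 in KO-2, 0.48 in KO-1 and 0.44 in control. Over all rows it was 0.39, 0.28 and 0.24 in the same order. Between the guides, KO-2 against KO-1, limma called 0 members (0.00%, against 1.14% of all rows), with 24 at an unadjusted p below 0.05, and the authors' deposited table also gave 0, against 1.49% of all its rows. The lowest adjusted p was 0.10, for TP73-AS1, at -0.39 on the log2 scale. With KO-2 replicate 1 left out 3 members were called, and with KO-2 replicate 2 left out 34, so the count of 0 does not show that the guides act alike. Counts of the single guides likewise moved with the libraries, between 2 without either control library and 39 without KO-2 replicate 2 for KO-2, and between 6 without control replicate 2 and 60 without KO-2 replicate 1 for KO-1.

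Of 32 antisense transcripts with a described role, 20 were tested. GAS6-AS1, HOXA-AS3 and TP73-AS1 rose (3, where 14.6% of all rows did) and OIP5-AS1 fell (1, where 14.9% of all rows did). GAS6-AS1 passed the level rule only through the knockouts, so its place in that count is a description. The median log2 fold change was 0.06, against -0.01 for all rows. FGD5-AS1, the most abundant member, had 7.67 and 7.60 log2 CPM in KO-2, 7.54 and 7.57 in KO-1, and 7.67 and 7.68 in control, at a log2 fold change of -0.08 ± 0.05 (adjusted p = 0.24). TMPO-AS1, named for the lamina protein gene TMPO, had 2.45 and 2.38 log2 CPM in KO-2, 2.59 and 2.22 in KO-1, and 2.84 and 2.83 in control, and did not pass (-0.43 ± 0.17, adjusted p = 0.080). From the fourth rank in level down, THAP9-AS1, NUTM2A-AS1 and PSMA3-AS1 had log2 fold changes of 0.06, -0.13 and 0.13, none of them called, and the NUTM2A locus has near-identical copies that make its value uncertain. Beside genes of developmental transcription factors, chosen by the first letters of the name, 21 of 23 were tested, with 1 higher (HOXA-AS3), 1 lower (GATA2-AS1) and a median of 0.02, and the same shares of all rows apply. PAXBP1-AS1 and PAXIP1-AS2 are in that list by their letters alone, since their sense genes code for partners of PAX proteins. HOXA-AS2, next to HOXA-AS3, had a log2 fold change of 0.13 (adjusted p = 0.48), and HOXB-AS3 one of 0.16 (adjusted p = 0.53).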

How the data were processed

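The deposited table holds log2 CPM per gene for 6 libraries, made by the authors. Per the submitters' processing notes, the tools were fastp, STAR (2.7), featureCounts (Subread 2.0) and edgeR, with hg38. Neither the counting's strand setting nor the annotation is stated. A second deposited table gives the authors' log2 fold changes, p-values and false discovery rates. Removing the prior of 0.102 CPM from the log2 values gave whole reads for 100% of values, at a tolerance of 0.01 reads, so depths are sums over the table, and 1 read was worth 0.0383 to 0.0767 CPM. Low members are thus the least precise, and folds on this scale understate their change.

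Rows with log2 CPM of at least 0 in at least 2 of 6 libraries (13765) were fitted with limma 3.58.1 in R 4.3.3, using group means over all 6 libraries and a mean-variance trend, with 3 residual and 8.02 prior degrees of freedom. Adjusted p-values are Benjamini-Hochberg over all rows, at 0.05. The fit was tested on simulated data. Coordinates, strands, exons and arrangements come from GENCODE v29, in which 345 members have coordinates, and sense genes were matched by symbol (316 members). Levels per kilobase divide CPM by exonic length. Members named are up to 12 called in each direction, the 6 most abundant, pairs with both called, the described list and 3 on either side of the level rule. The members and lists were chosen with earlier results of these data known.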

Additional observations from a re-analysis of the deposited data

Results flagged for a closer look

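The 134 antisense-named rows below the level rule enter no comparison above. When every row was tested with limma, 2 of them were called higher in the knockouts, and RNASEH2B-AS1, described below, was called lower. That fit called 4018 of all 14788 rows. MPRIP-AS1, named for the myosin phosphatase partner gene MPRIP, had 4 and 6 reads in KO-2, 14 and 12 in KO-1, and 0 and 0 in control. Its fitted log2 fold change was 2.52 (adjusted p = 0.0075), which depends on the prior and is no bound. Against a floor of 3 reads over the control group, its knockout level was 8.52-fold higher. That value leaves out counting error in the knockout reads. MED8-AS1, named for the Mediator subunit gene MED8, had 3 and 14 reads in KO-2, 11 and 22 in KO-1, and 1 and 3 in control. Its log2 fold change was 2.01 (adjusted p = 0.022), and its pooled knockout level was 8.88 times that of control, with a 95% exact interval of 3.26 to 33.8 for counting error alone. Strand was not known for either.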

How the results depend on the processing

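Counts of called members for both guides (27), KO-2 (10), KO-1 (28), KO-2 against KO-1 (0) and pairs with both called (9) stayed within 1.5 times under equal medians, quantile normalization, log2(CPM + 1), no filter, a mean of at least 1 and robust moderation. Without the mean-variance trend KO-2 had 1 and pairs 2. With the 4 knockout libraries as 1 group there were 15 members and 3 pairs. With limma's voom on the recovered reads, chosen after seeing the data in place of the planned edgeR and DESeq2 tests, which were not run because the deposited unit is log2 CPM, there were 43 members (12 higher, 31 lower) and 15 pairs. Leaving out 1 library gave 6 to 55 members for both guides, 2 to 39 for KO-2, 6 to 60 for KO-1, 0 to 34 for KO-2 against KO-1, and 0 to 29 pairs, and where it removes 1 of 2 libraries the lone one is assumed to vary like the others. No called member changed direction in any fit. Signs of uncalled members turned on leaving out 1 library, with log2 fold changes of -0.0030 to 0.13 for THAP9-AS1, -0.039 to 0.15 for MAPKAPK5-AS1 (also -0.0058), -0.0037 to 0.32 for HOXB-AS3, -0.49 to 0.12 for HOXC-AS1 (also 0.092) and -0.062 to 0.37 for SLC25A25-AS1, and -0.18 without control replicate 2 for HOXB-AS1. Same-numbered replicates did not deviate together (r of -0.04, 0.04 and -0.05). Whether they were grown or prepared together is not stated, and these values do not settle it. The replicate block gave 23 members for both guides, 9 for KO-2, 29 for KO-1, 0 between the guides and 8 pairs. The cause of these shifts was not tested. Depth limits the low members most, with 1 read worth up to 0.0767 CPM.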

Other observations

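RNASEH2B-AS1, named for a subunit gene of the ribonuclease that removes RNA from DNA and below the level rule, had 2 and 2 reads in KO-2, 0 and 3 in KO-1, and 14 and 18 in control. It was named after its values were seen. When every row was tested with limma, its log2 fold change was -1.95 (adjusted p = 0.043), and its pooled knockout level was 0.155 times that of control, with a 95% exact interval of 0.0579 to 0.358 for counting error alone.

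Members called for 1 guide and not for both guides together were few. NFATC2IP-AS1 was lower in KO-2 (-0.81, adjusted p = 0.037), with -0.36 in KO-1. CEBPB-AS1 (-1.31), ITGA9-AS1 (-0.88), PSMG3-AS1 (-1.04) and STARD7-AS1 (-0.92) were lower in KO-1, and TICAM2-AS1 (1.46) had a higher value there, with values of -0.49, -0.48, -0.35, -0.43 and 0.77 in KO-2 in the same order. TICAM2-AS1 passed the level rule only through the KO-1 libraries, so its value there is a description. These were named after their values were seen, and limma called none of them between the guides.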
